A study of Mus musculus with 16 samples.

Results

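The genes examined encode 8 enzymes of heme biosynthesis: *Alas1*, *Alas2*, *Alad*, *Uros*, *Urod*, *Cpox*, *Ppox* and *Fech*. They were taken by gene symbol, and all 8 were present among the 55416 genes of the count table and passed the filter on low counts in every comparison.

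Heme is made in a linear pathway that starts and ends in mitochondria and passes through the cytosol in between. Its first step, the condensation of glycine with succinyl-CoA to 5-aminolevulinic acid (ALA), is carried out by either of a pair of isozymes: ALAS1, present in most tissues, and ALAS2, the erythroid enzyme encoded on the X chromosome. Developing red cells make heme in large amounts for haemoglobin, and the genes of the pathway are known targets of the erythroid transcription factor GATA1.

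RNA-seq was performed on erythroblasts sorted by Ter119 and CD71 from the foetal livers of mouse embryos at E13.5, as the earlier stage S1 (erythroid colony-forming cells) and the later stage S3 (basophilic erythroblasts). The embryos came from a C57BL/6J line that lacks the promoter of *Nprl3* in every tissue and keeps the nearby enhancers of the α-globin genes: 4 were wild-type (WT, 2 male and 2 female), 2 heterozygous (Het, both male) and 2 homozygous for the deletion (KO, 1 male and 1 female). NPRL3 is a subunit of GATOR1, a negative regulator of mTORC1. Each embryo gave 1 library per stage, hence 16 libraries, and embryos are named here by the numbers of their labels: 0, 1, 5 and 8 were WT, 3 and 4 Het, 2 and 9 KO.

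Between 20666044 and 37609502 counts were assigned to genes in each library. The source and tissue fields of the labels name an embryonic stem cell line, but of 4 stem cell markers (*Pou5f1*, *Nanog*, *Zfp42* and *Dppa5a*) 3 or 4 were at 0 in every group, and the summed level of all 4 reached at most 0.102 CPM, a count scaled to the size of its library. All 9 erythroid markers were present in every group, with a sum of 1958 to 9520 CPM at S1 and 138625 to 182146 CPM at S3. At S1 *Nprl3* stood at 22.6 to 32.6 CPM in WT, at 12.7 and 12.98 CPM in Het and at 0.319 and 0.676 CPM in KO. At S3 it stood at 107 and 111 CPM in KO, at 118 and 146 CPM in Het and at 146 to 204 CPM in WT, so that the KO libraries were the lowest but not near 0. The paper states that spliced transcripts from the enhancers, which code for no protein, confound measurement of *Nprl3* mRNA. Its digital droplet PCR specific to promoter-derived mRNA detected no *Nprl3* in KO cells. The part of enhancer transcripts in the counts used here was not tested.

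The S1 libraries of WT embryos 0 and 8, the male WT embryos, stood apart from the other S1 libraries. Globin genes took 1.07% and 1.00% of their counts, against 0.0738% to 0.305% in the other 6. A list of 7 neutrophil genes (*Mpo*, *Elane*, *Prtn3* and others) summed to 202 and 115 CPM in them, 1149 and 1367 CPM in the other WT libraries, 1555 and 1567 CPM in Het, and 1619 and 1689 CPM in KO. A list of 9 hepatoblast genes summed to 289 and 259 CPM in them and to 21.9 to 142 CPM in the others. The members' values that use the WT S1 libraries are therefore also given without embryos 0 and 8, an option chosen after the data were seen. Counts measure shares of the RNA in a sorted population, so a change in the mix of cells and a change within cells cannot be told apart.

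To show the regulatory sequence of genes that moved together, the 250 bases before the RefSeq transcription start were read from the RefSeq promoter table. Its build is GRCm38.p6, which is not the mm39 build of the counts. No window was read for *Fech*, so its promoter was not searched for motifs. For the other 7 of the 8 members, 10 such windows were read. They were searched on both strands for GATAA, a motif of GATA factors, and CACCC, a motif of Krüppel-like factors, whose reverse complements are TTATC and GGGTG. The windows with GATAA belonged to *Alas2*, *Cpox* and *Uros*, and are printed with the second of the 2 windows of *Alas1*, the one member that fell from S1 to S3. Capitals mark every match to either motif on either strand. No match to one motif overlapped a match to the other.
Alas2, chrX:150547167-150547416, plus strand: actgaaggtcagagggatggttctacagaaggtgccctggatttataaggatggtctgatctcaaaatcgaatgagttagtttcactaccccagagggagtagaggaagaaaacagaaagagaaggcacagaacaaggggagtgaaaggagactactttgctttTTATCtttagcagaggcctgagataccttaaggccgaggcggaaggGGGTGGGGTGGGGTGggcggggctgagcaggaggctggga
Cpox, chr16:58669958-58670207, plus strand: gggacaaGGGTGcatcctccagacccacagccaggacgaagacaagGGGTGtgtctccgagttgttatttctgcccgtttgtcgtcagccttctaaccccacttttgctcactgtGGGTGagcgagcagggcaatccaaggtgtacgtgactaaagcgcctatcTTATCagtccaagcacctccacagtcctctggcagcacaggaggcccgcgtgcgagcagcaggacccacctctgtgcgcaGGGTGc
Uros, chr7:133702501-133702750, minus strand: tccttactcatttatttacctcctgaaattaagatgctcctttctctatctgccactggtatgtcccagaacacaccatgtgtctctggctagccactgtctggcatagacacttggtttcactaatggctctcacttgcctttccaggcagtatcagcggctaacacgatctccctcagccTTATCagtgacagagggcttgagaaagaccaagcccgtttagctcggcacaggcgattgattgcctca
Alas1, chr9:106247731-106247980, minus strand: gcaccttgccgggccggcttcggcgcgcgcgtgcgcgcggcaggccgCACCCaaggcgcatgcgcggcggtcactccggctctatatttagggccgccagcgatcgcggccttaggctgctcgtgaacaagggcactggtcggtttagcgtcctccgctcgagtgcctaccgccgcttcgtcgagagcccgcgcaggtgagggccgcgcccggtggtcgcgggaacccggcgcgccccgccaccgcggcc

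The GATAA match lay 86 bases before the start in *Alas2* and in *Cpox*, counted to the first base of the match, and 68 bases before the start in *Uros*. That *Uros* window was the second of 2, and the first held neither motif. Of all 32851 windows in the table, 22.6% held GATAA. *Alas2* had a run of 3 matches to CACCC, at 40, 35 and 30 bases before the start, and *Cpox* had 4. CACCC was also found once in each of the 2 windows of *Alas1* and in 1 window of *Alad*, and in 52.0% of all windows. These matches describe the letters in the windows and say nothing about whether a factor is bound there.

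From S1 to S3, 7 of the 8 members rose and *Alas1* fell, in each of the 8 embryos. Markers of other cells moved between the stages too: the 7 neutrophil genes summed to 115 to 1689 CPM at S1 and to 0.996 to 7.65 CPM at S3, and 3 primitive erythroid globin genes (*Hbb-y*, *Hbb-bh1* and *Hba-x*) to 2.09 to 84.3 CPM at S1 and to 2054 to 4462 CPM at S3. The 9 hepatoblast genes summed to 21.9 to 289 CPM at S1 and 65.2 to 739 CPM at S3, and the sum was higher at S3 in 8 of 8 embryos. The sum of 6 megakaryocyte genes, 17.4 to 71.1 CPM at S1 and 54.0 to 110 CPM at S3, was higher at S3 in 8 of 8 embryos, and that of 10 macrophage genes, 11.3 to 36.5 CPM and 16.5 to 78.2 CPM, in 7 of 8. Their part in the members' changes was not tested. In WT all 8 changes passed the threshold (0.05 on the adjusted p of edgeR, quasi-likelihood, Benjamini-Hochberg over 13514 genes), where 30.6% of all genes tested rose and 35.0% fell. Likewise the same 7 rose and *Alas1* fell in KO, where 24.7% of all genes rose and 28.4% fell, and in Het, where 36.3% rose and 39.6% fell. The median log2 fold change of the members was 3.57 in WT, 3.50 in KO and 3.88 in Het, beside −0.08, −0.09 and −0.05 over all genes tested. Upper-quartile scaling moved the median of all genes to −0.26 in WT and that of the members to 3.39, and no direction changed. In WT the S3 and S1 libraries did not overlap for any member; over all genes, all S3 libraries lay above all S1 libraries for 27.6% and below them for 32.8%.

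**Figure D1:**
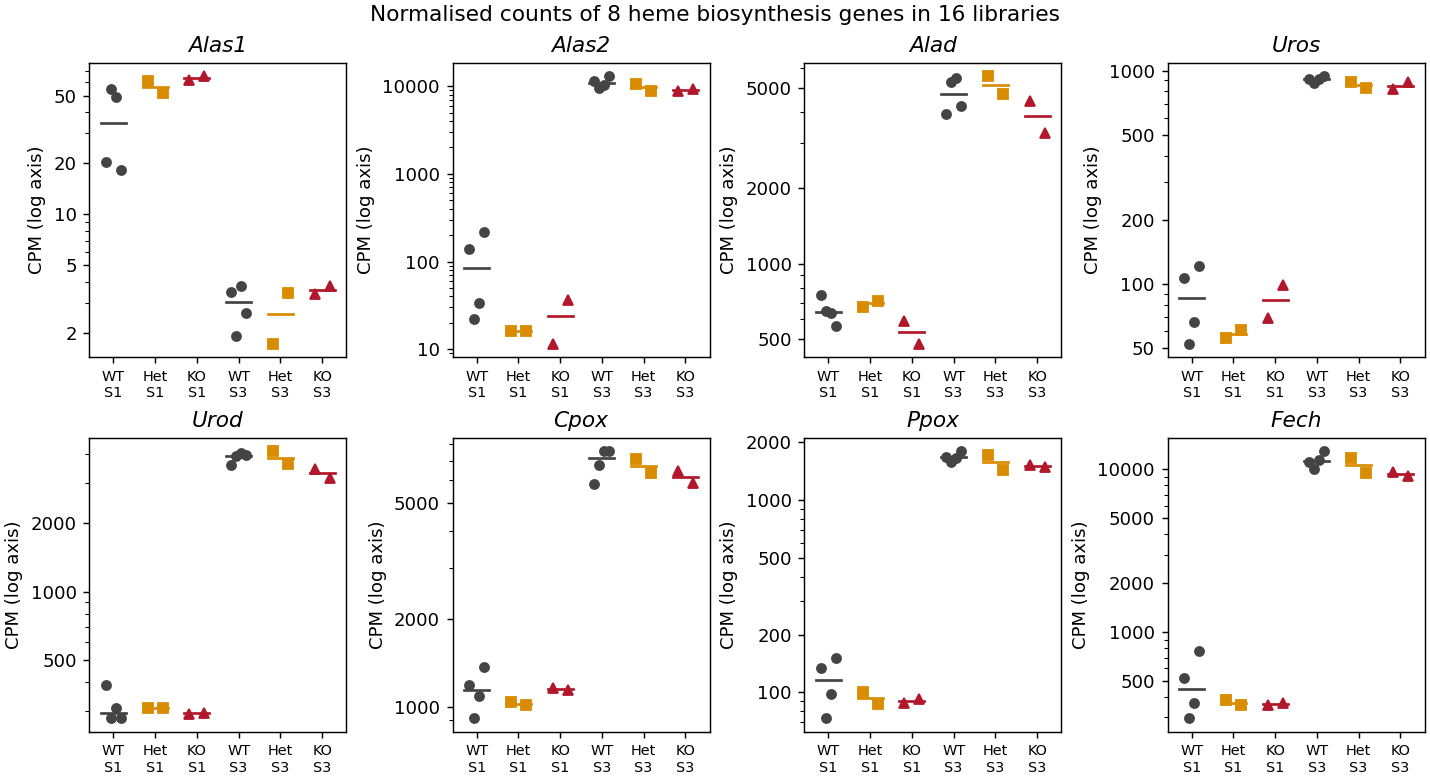
CPM (log axis) of each member in the 16 libraries, by genotype and stage; points are embryos and lines are group medians. *Alas2* goes from 11.6 to 218 CPM at S1 to 8757 to 12886 CPM at S3, while *Alas1* is the only panel in which the S3 libraries lie below the S1 libraries.

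*Alas2* (ENSMUSG00000025270.14; mm39 chrX:149330371-149353634, plus strand) showed the largest rise of the 8. At S1 it stood at 138, 21.9, 33.4 and 218 CPM in WT embryos 0, 1, 5 and 8, at 16.3 CPM in both Het embryos, and at 11.6 and 36.5 CPM in KO embryos 2 and 9. At S3 the same embryos had 11369.9, 9493, 10415 and 12886 CPM in WT, 10598 and 8801 CPM in Het, and 8757 and 9241 CPM in KO. The S1 libraries thus spread 18.9-fold from lowest to highest and the S3 libraries 1.47-fold. In WT the rise was 112-fold (95% interval 33.9 to 369.9; log2 fold change 6.81, standard error (SE) 0.78, adjusted p = 2.9e-05). It was 375-fold without embryos 0 and 8 and 171-fold without embryo 8 alone. In KO the log2 fold change was 8.63 (SE 0.71), or 395-fold, and 799-fold without KO embryo 9. In Het it was 9.34 (SE 0.22), or 647-fold. The largest adjusted p among the 8 members was 4.5e-04 in KO and 1.1e-14 in Het. In each embryo by itself, the rise ranged from 59.1-fold in WT embryo 8 to 758-fold in KO embryo 2. Of the exon bases counted for *Alas2*, 15.48% also belong to *Apex2* or *Mir3620* on the other strand; read pairs that overlapped both genes were not counted.

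*Alas1* (ENSMUSG00000032786.17; chr9:106110654-106125853, minus strand), the isozyme of most other tissues, moved the opposite way. At S1 it stood at 20.3, 55.03, 49.0 and 18.1 CPM in WT embryos 0, 1, 5 and 8, at 60.7 and 52.0 CPM in Het, and at 62.4 and 65.0 CPM in KO. At S3 it was at 3.46, 1.92, 3.79 and 2.62 CPM in WT, 1.72 and 3.43 CPM in Het, and 3.39 and 3.80 CPM in KO, from raw counts of 31 to 99 per library. WT embryos 0 and 8, which had the most *Alas2* at S1, had the least *Alas1*. They also had the lowest sums of the 7 neutrophil genes at S1, 202 and 115 CPM, beside 1149 to 1689 CPM in the others. At S3 that sum was 0.996 to 7.65 CPM. The part of such cells in the values of *Alas1* was not tested. The log2 fold change was −3.52 (SE 0.42, adjusted p = 3.9e-05) in WT, an 11.4-fold fall, and −4.11 without embryos 0 and 8. It was −4.06 (SE 0.20) in KO. It was −4.32 (SE 0.20) in Het and −5.02 without Het embryo 4.

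The balance of the isozymes was compared on TPM, which divide counts by the length of all exons and scale each library to the same sum. At S1, *Alas2* made up 32.3% of the summed TPM of both in KO embryo 2, 40.7% and 44.6% in the Het embryos, 50.6% and 63.7% in WT embryos 1 and 5, 59.1% in KO embryo 9, and 94.6% and 96.9% in WT embryos 0 and 8. With the counted bases of the Ensembl canonical transcript as the length, in place of all exon bases, the share fell below that of *Alas1* in WT embryo 1 (39.9%) and KO embryo 9 (48.4%), so that *Alas1* led in 5 of the 8 S1 libraries rather than 3. At S3 it made up 99.984% to 99.994% in all 8 embryos. By TPM *Alas2* ranked between place 385 and 5412 among all genes in the S1 libraries, and between 8 and 11 in the S3 libraries.

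**Figure D2:**
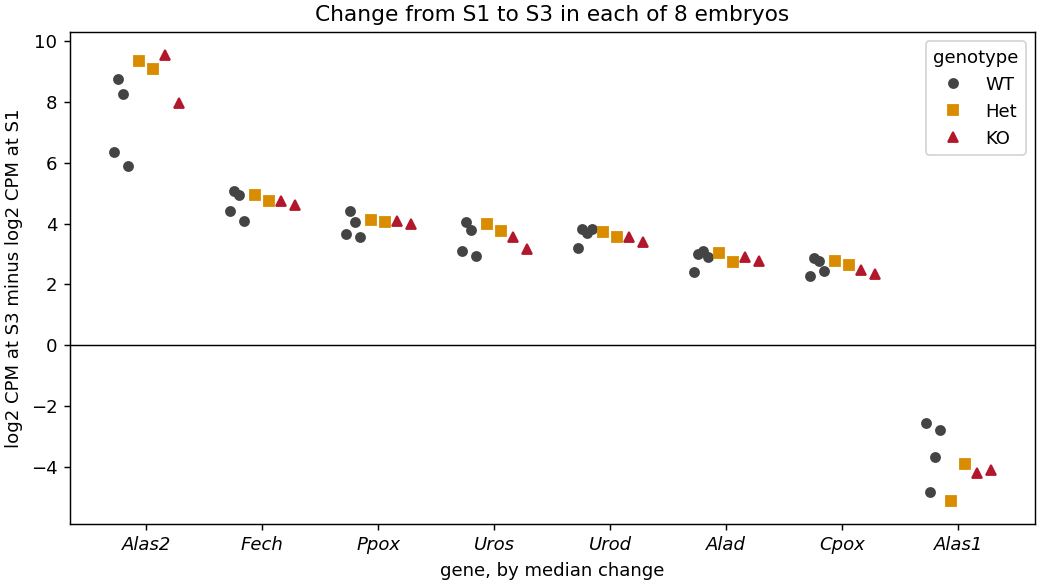
Log2 CPM at S3 minus log2 CPM at S1 for each member in each of the 8 embryos, with symbols for genotype and genes ordered by their median change. All embryos lie above 0 for 7 genes and below 0 for *Alas1*; *Alas2* has the widest range, 5.89 to 9.57.

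*Alad* (ENSMUSG00000028393.11; chr4:62427406-62438155, minus strand) encodes ALA dehydratase, which joins ALA into porphobilinogen in the cytosol. At S1 it stood at 748, 650.2, 639 and 567 CPM in WT embryos 0, 1, 5 and 8, at 675 and 713 CPM in Het, and at 591 and 480.2 CPM in KO. The S3 levels were 3935, 5249.8, 5442 and 4211 CPM in WT, 5536 and 4726 CPM in Het, and 4403 and 3293 CPM in KO. Unlike *Alas2*, it was already high at S1, and its S1 libraries differed by no more than 1.56-fold. In WT its log2 fold change was 2.91 (SE 0.17, adjusted p = 5.6e-07), or 7.54-fold.

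*Uros* (ENSMUSG00000030979.14; chr7:133287972-133311801, minus strand) encodes uroporphyrinogen III synthase, which closes the tetrapyrrole ring. At S1 its level was 106, 52.5, 66.4 and 122 CPM in WT embryos 0, 1, 5 and 8, 56.1 and 60.7 CPM in Het, and 69.2 and 98.8 CPM in KO. Its S3 level was 909, 875, 918 and 939.6 CPM in WT, 889 and 829 CPM in Het, and 818 and 883 CPM in KO. WT embryos 0 and 8 were again highest at S1, and all S3 libraries lay within 1.15-fold of each other. The log2 fold change in WT was 3.45 (SE 0.27, adjusted p = 2.8e-06).

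*Urod* (ENSMUSG00000028684.15; chr4:116847162-116851610, minus strand) encodes uroporphyrinogen decarboxylase, the last cytosolic enzyme of the pathway. At S1 it stood at 389, 278, 309.7 and 280.1 CPM in WT embryos 0, 1, 5 and 8, at 309 and 308 CPM in Het, and at 289 and 295 CPM in KO. It reached, at S3, 3573, 3945, 4032 and 3953 CPM in WT, 4134 and 3611 CPM in Het, and 3456 and 3138 CPM in KO. Its S1 libraries differed by at most 1.40-fold, the least of the 8 genes, and its rise in WT, a log2 fold change of 3.69 (SE 0.17, adjusted p = 2.7e-07), had the smallest p of the 8.

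*Cpox* (ENSMUSG00000022742.7; chr16:58490655-58537999, plus strand) encodes coproporphyrinogen oxidase, which acts in the mitochondrial intermembrane space. At S1 it stood at 1195, 915, 1095 and 1373 CPM in WT embryos 0, 1, 5 and 8, at 1038 and 1014 CPM in Het, and at 1167 and 1147 CPM in KO. By S3 it had reached 5839.9, 6749, 7548 and 7530.0 CPM in WT, 7077 and 6328 CPM in Het, and 6443 and 5842 CPM in KO. Its rise was the smallest of the 7, with a log2 fold change of 2.66 (SE 0.19, adjusted p = 1.5e-06) in WT, or 6.31-fold.

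*Ppox* (ENSMUSG00000062729.13; chr1:171103563-171108760, minus strand) encodes protoporphyrinogen oxidase of the inner mitochondrial membrane. Its S1 level was 133, 73.3, 98.4 and 151 CPM in WT embryos 0, 1, 5 and 8, 100.1 and 87.2 CPM in Het, and 88.5 and 92.9 CPM in KO. The S3 level was 1683, 1575, 1655 and 1798 CPM in WT, 1724 and 1439 CPM in Het, and 1516 and 1489 CPM in KO. WT embryos 0 and 8 had the highest *Ppox* at S1. In WT it rose with a log2 fold change of 3.94 (SE 0.25, adjusted p = 7.9e-07). Exon bases shared with *B4galt3* on the other strand made up 17.52% of those of *Ppox*, the largest share among the members.

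*Fech* (ENSMUSG00000024588.11; chr18:64585985-64623322, minus strand) encodes ferrochelatase, which inserts iron into protoporphyrin. At S1 it stood at 526, 296, 369 and 771 CPM in WT embryos 0, 1, 5 and 8, at 384 and 357 CPM in Het, and at 359.6 and 370.4 CPM in KO. The level at S3 was 11143, 10071, 11358 and 12974 CPM in WT, 11783 and 9523 CPM in Het, and 9641 and 9104 CPM in KO. Its rise was the second largest, a log2 fold change of 4.60 (SE 0.33, adjusted p = 1.6e-06) in WT, or 24.3-fold, and 5.07 without embryos 0 and 8.

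The rises were also ordered within embryos. *Alas2* rose more than *Fech*, *Fech* more than *Ppox*, and *Ppox* more than *Uros*, in 8 of 8 embryos each. *Uros* rose more than *Urod* in 4 of 8, so these neighbours were not ordered, and *Ppox* more than *Urod* in 7 of 8, the exception being WT embryo 8. *Urod* rose more than *Alad*, and *Alad* more than *Cpox*, in 8 of 8. In WT without embryos 0 and 8, the log2 fold changes were 4.29 (SE 0.19) for *Ppox*, 3.82 (SE 0.14) for *Urod*, 3.97 (SE 0.17) for *Uros*, 3.11 (SE 0.13) for *Alad* and 2.89 (SE 0.16) for *Cpox*, all called. In KO the log2 fold changes were 4.77 (SE 0.21) for *Fech*, 4.14 (SE 0.18) for *Ppox*, 3.58 (SE 0.18) for *Urod*, 3.43 (SE 0.24) for *Uros*, 2.93 (SE 0.23) for *Alad* and 2.49 (SE 0.18) for *Cpox*. In Het they were 4.97 (SE 0.19), 4.20 (SE 0.15), 3.77 (SE 0.16), 4.00 (SE 0.14), 3.00 (SE 0.16) and 2.83 (SE 0.16) in the same order of genes.

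Compared per length as TPM, the levels of the members followed another order at each stage. At S1 *Alad* was highest, with 1110 to 1552 TPM, followed by *Cpox* (521 to 1014 TPM), *Urod* (407 to 584 TPM) and *Fech* (81.2 to 274 TPM), each above the next in all 8 libraries. Below *Fech*, the libraries disagreed on the order: *Ppox* was above *Uros* in 5 of 8, *Uros* above *Alas2* in 6 of 8, and *Alas2* above *Alas1* in 5 of 8. At S3 *Alas2* led with 5876 to 8425 TPM, ahead of *Alad* (3252 to 4374 TPM), *Urod* (2236 to 2417 TPM), *Cpox* (1522 to 1776 TPM), *Fech* (1094 to 1473 TPM), *Ppox* (511 to 653 TPM), *Uros* (365 to 456 TPM) and *Alas1* (0.409 to 1.14 TPM). At S3 each was above the next in 8 of 8 libraries. With the counted bases of the canonical transcript as the length, the order at S3 was the same, and so was the order from *Alad* to *Fech* at S1, each again above the next in 8 of 8 libraries. Below *Fech* at S1, *Ppox* was then above *Uros* in 1 of 8 libraries and *Alas1* above *Alas2* in 5 of 8. With the whole canonical transcript as the length, *Cpox* was above *Alad* at S1 in 8 of 8 libraries. At S3 that length put *Cpox* and *Fech* above *Alad* and *Urod*. It exceeds the exon bases counted for *Alad*, *Urod* and *Uros*. Together the 8 genes took 0.313% to 0.530% of the counts at S1 and 2.65% to 3.11% at S3.

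At S1 the members differed in how far the WT embryos spread. The SD of log2 CPM over the 4 WT libraries was 1.59 for *Alas2*, 0.83 for *Alas1*, 0.60 for *Fech*, 0.57 for *Uros* and 0.47 for *Ppox*, and 0.25, 0.23 and 0.16 for *Cpox*, *Urod* and *Alad*. At S3 it was 0.44 for *Alas1* and 0.04 to 0.23 for the others. Ordered by globin share, the 8 S1 libraries ran from KO embryo 2 (0.0738%) through Het 3 (0.104%), Het 4 (0.137%), WT 1 (0.184%), WT 5 (0.290%), KO 9 (0.305%) and WT 8 (1.00%) to WT 0 (1.07%). Their *Alas2* levels followed the same order except that WT 8 and WT 0 changed places. Globin and heme genes were read from the same libraries, and this order is given as a description.

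**Figure D3:**
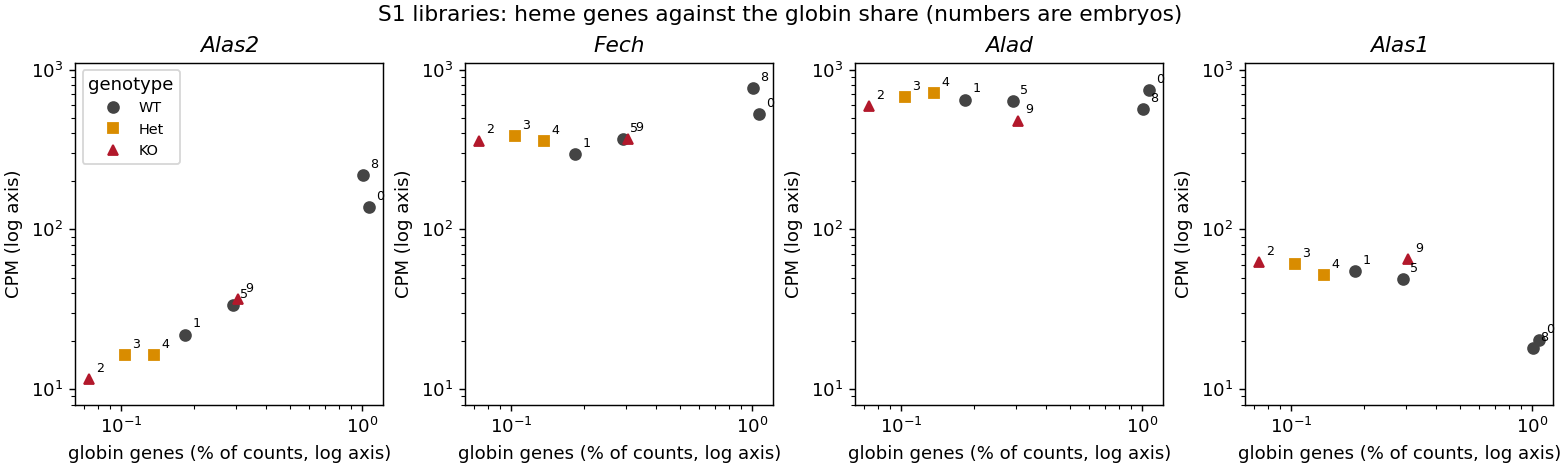
CPM of *Alas2*, *Fech*, *Alad* and *Alas1* in the 8 S1 libraries (log axis) against the percentage of counts in globin genes (log axis); each point is a library, marked by genotype and embryo number. WT embryos 0 and 8, at 1.07% and 1.00% globin, have the highest *Alas2* and *Fech* and the lowest *Alas1*, while *Alad* stays between 480.2 and 748 CPM.

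Loss of *Nprl3* was compared with WT within each stage. At S1 none of the 8 members passed the threshold in KO (0 called by edgeR, 0 by DESeq2), where edgeR called 0.00712% of all 14039 genes and DESeq2 0.321%; by edgeR none had an unadjusted p under 0.05, as 2.53% of all genes had. *Alas2* had the lowest log2 fold change, −2.10 (SE 1.02, 95% interval −4.48 to 0.28, adjusted p = 0.9998). Its KO libraries, at 11.6 and 36.5 CPM, overlapped those of WT, at 21.9 to 218 CPM. It was −3.19 without KO embryo 9, −1.51 without KO embryo 2, −1.40 without WT embryo 8 and −0.17 (SE 0.52) without WT embryos 0 and 8. With sex as a covariate in DESeq2 it was −1.75 (SE 0.35) and was the one member called (adjusted p = 2.2e-04; 1.22% of all genes), while edgeR with sex gave −1.74 (SE 0.35, adjusted p = 0.214) and no call. *Alas1* had a log2 fold change of 0.86 (SE 0.44), and both KO libraries lay above all 4 WT libraries, as for 6.17% of all genes. Without embryos 0 and 8 its value was 0.31 (SE 0.17). The neutrophil sum was 1619 and 1689 CPM in KO and 115 to 1367 CPM in WT, and its part in this difference was not tested. The log2 fold changes of the other 6 members lay between −0.43 (*Fech*, SE 0.39) and 0.02 (*Cpox*, SE 0.21). Without WT embryos 0 and 8 they were −0.25 (SE 0.17) for *Alad*, 0.52 (SE 0.24) for *Uros*, 0.01 (SE 0.16) for *Urod*, 0.22 (SE 0.18) for *Cpox*, 0.10 (SE 0.20) for *Ppox* and 0.15 (SE 0.18) for *Fech*, so that all but *Alad* and *Cpox* changed sign, and none was called.

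At S3 again no member was called in KO against WT (0 by edgeR, 0 by DESeq2), where edgeR called 0.559% of 11804 genes and DESeq2 2.19%, and by edgeR none had an unadjusted p under 0.05, as 8.52% of all genes had. The log2 fold changes of 7 members were below 0, where 49.0% of all genes were. They ran from −0.24 for *Alas2* (SE 0.18, 95% interval −0.65 to 0.17), −0.23 for *Alad* (SE 0.18) and −0.23 for *Fech* (SE 0.17) to −0.04 for *Uros* (SE 0.13). *Alas1* had 0.34 (SE 0.32). The median over the members was −0.15, beside 0.01 over all genes, and the lowest adjusted p was 0.825. Both KO libraries lay below all 4 WT libraries for *Alas2*, *Urod*, *Ppox* and *Fech*, as for 12.1% of all genes. The hepatoblast sum was 65.2 and 191 CPM in KO and 156 to 739 CPM in WT. The sum of 10 macrophage genes was 31.2 and 16.5 CPM in KO and 33.2 to 78.2 CPM in WT. The globin share was 10.0% and 10.5% in KO and 10.8% to 11.8% in WT. The part of all 3 in these differences was not tested.

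In Het against WT at S1 no member was called (0 by edgeR, 0 by DESeq2; 0.0% of all genes by edgeR and 0.217% by DESeq2). The log2 fold change of *Alas2* was −2.69 (SE 0.97, unadjusted p = 0.0255, adjusted p = 0.905), the one member with an unadjusted p under 0.05, as 4.26% of all genes had. Both Het libraries, at 16.3 CPM, lay below all WT libraries, as for 9.3% of all genes, and the value was −2.01 without WT embryo 8. The other log2 fold changes ran from −0.58 (*Uros*, SE 0.37) to 0.68 (*Alas1*, SE 0.44). Without WT embryos 0 and 8 the log2 fold change was −0.76 (SE 0.24, adjusted p = 0.827) for *Alas2*, 0.13 (SE 0.15) for *Alas1*, 0.12 (SE 0.12) for *Alad*, −0.02 (SE 0.17) for *Uros*, 0.08 (SE 0.12) for *Urod*, 0.04 (SE 0.14) for *Cpox*, 0.13 (SE 0.18) for *Ppox* and 0.16 (SE 0.15) for *Fech*, and none was called. Both Het embryos were male, as were WT embryos 0 and 8, so that a fit with sex sets them mainly against these. In that fit edgeR called 3 members: *Alas2* (−3.49, SE 0.32), *Alas1* (1.52, SE 0.21) and *Uros* (−1.001, SE 0.22), where it called 2.87% of all genes. DESeq2 with sex called these and *Fech* (−0.86, SE 0.28), where it called 5.9% of all genes. At S3 no member was called in Het (0 by edgeR, 0 by DESeq2; 0.0% of all genes by edgeR and 0.00851% by DESeq2) or had an unadjusted p under 0.05 (3.18% of all genes), and the log2 fold changes ran from −0.14 to 0.18. DESeq2 with sex called *Alad* there (0.37, SE 0.11), 1 of 8 members, where that fit called 18.3% of all genes.

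**Figure D4:**
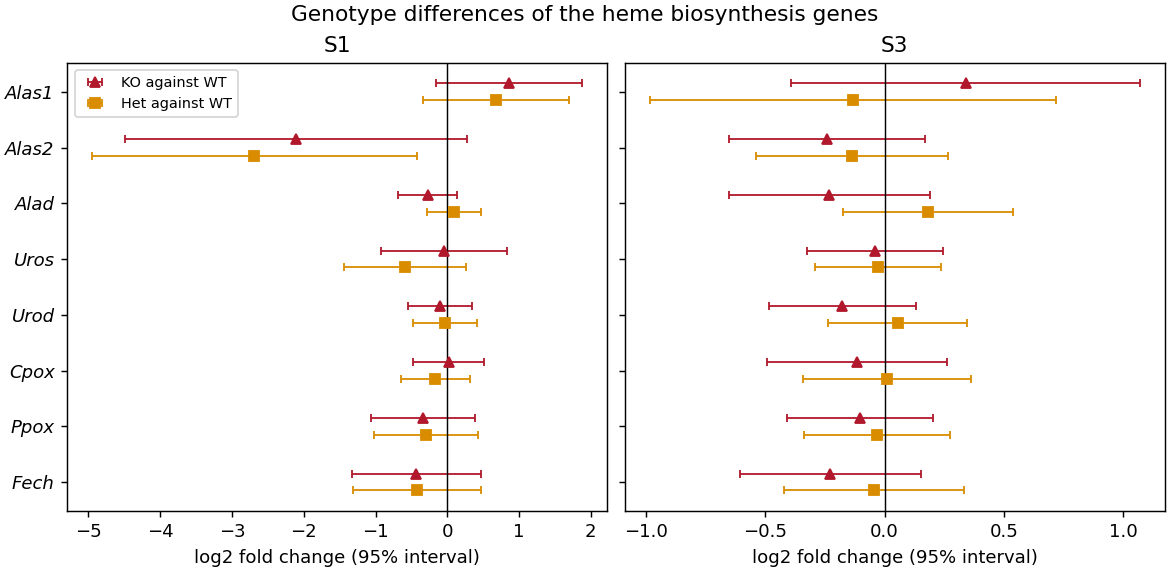
Log2 fold change of each member in KO (triangles) and Het (squares) against WT at S1 and at S3, with 95% intervals from edgeR; the panels have different horizontal scales. At S1 *Alas2* has the widest intervals and at S3 all values lie between −0.24 and 0.34.

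The change from S1 to S3 was also compared between genotypes as an interaction. No member passed the threshold for KO (0 by edgeR, 0 by DESeq2; 0.00742% of all genes by edgeR and 0.089% by DESeq2) or for Het (0 by both; 0.0% of all genes by both). *Alas2* had the highest estimate in both, 1.88 (SE 1.06) for KO and 2.52 (SE 0.96, unadjusted p = 0.0224, adjusted p = 1.0) for Het. The latter was the one member with an unadjusted p under 0.05 in either, as 2.8% of all genes had for Het and 3.11% for KO. The KO estimate was 2.83 without KO embryo 9 and 1.25 without WT embryo 8. Without WT embryos 0 and 8 the KO and Het estimates were 0.09 (SE 0.62) and 0.81 (SE 0.27). The KO and Het comparisons share their WT libraries.

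Other genes of the pathway were examined in 4 lists, whose counts stand beside the 30.6% of all genes that rose and the 35.0% that fell from S1 to S3 in WT. Of 10 genes of transport of heme intermediates and iron, 8 rose from S1 to S3 in WT, 1 fell (*Pgrmc1*) and 1 was not called (*Slc25a28*), with a median log2 fold change of 2.73. The smallest p values belonged to *Tspo2*, a translocator-like protein of erythroid cells (3.44, SE 0.17), and *Slc25a38*, the mitochondrial glycine carrier (2.36, SE 0.18). In WT embryos 0, 1, 5 and 8 *Tspo2* went from 123, 87.2, 102 and 89.9 CPM to 1001, 977, 1043 and 1153 CPM, and all S3 libraries were above all S1 libraries. Of 6 genes of enzymes that supply succinyl-CoA or of mitochondrial proteases and chaperones that act on ALAS, 1 rose (*Clpx*), 3 fell and 2 were not called. *Suclg2* and *Suclg1*, subunits of succinyl-CoA synthetase, fell with log2 fold changes of −1.97 (SE 0.20) and −1.14 (SE 0.19).

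Of 12 tested genes of iron-sulfur cluster assembly, which ferrochelatase depends on for its cluster, 6 rose, 2 fell and 4 were not called, with a median of 1.05. *Isca1*, an assembly protein, rose (3.14, SE 0.19), and *Hspa9*, a mitochondrial chaperone, fell (−2.34, SE 0.16). Of 9 tested genes of heme sensing, export and breakdown, 7 rose, *Flvcr1*, a heme exporter, fell (−2.93, SE 0.28) and 1 was not called. *Slc48a1*, a heme transporter, and *Blvrb*, a biliverdin reductase, rose by log2 fold changes of 3.08 (SE 0.18) and 3.26 (SE 0.21). In KO against WT, edgeR with the filter on low counts and without sex as a covariate called 0 of the 37 tested genes of the 4 lists at S1, where it called 0.00712% of all genes, and 0 at S3, where it called 0.559%. None of the 37 had an unadjusted p under 0.05 at S1 (2.53% of all genes), and 3 had at S3 (8.52% of all genes). DESeq2 called 0 at S1 (0.321% of all genes) and 1, *Hmox1*, at S3 (2.19% of all genes).

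**Figure D5:**
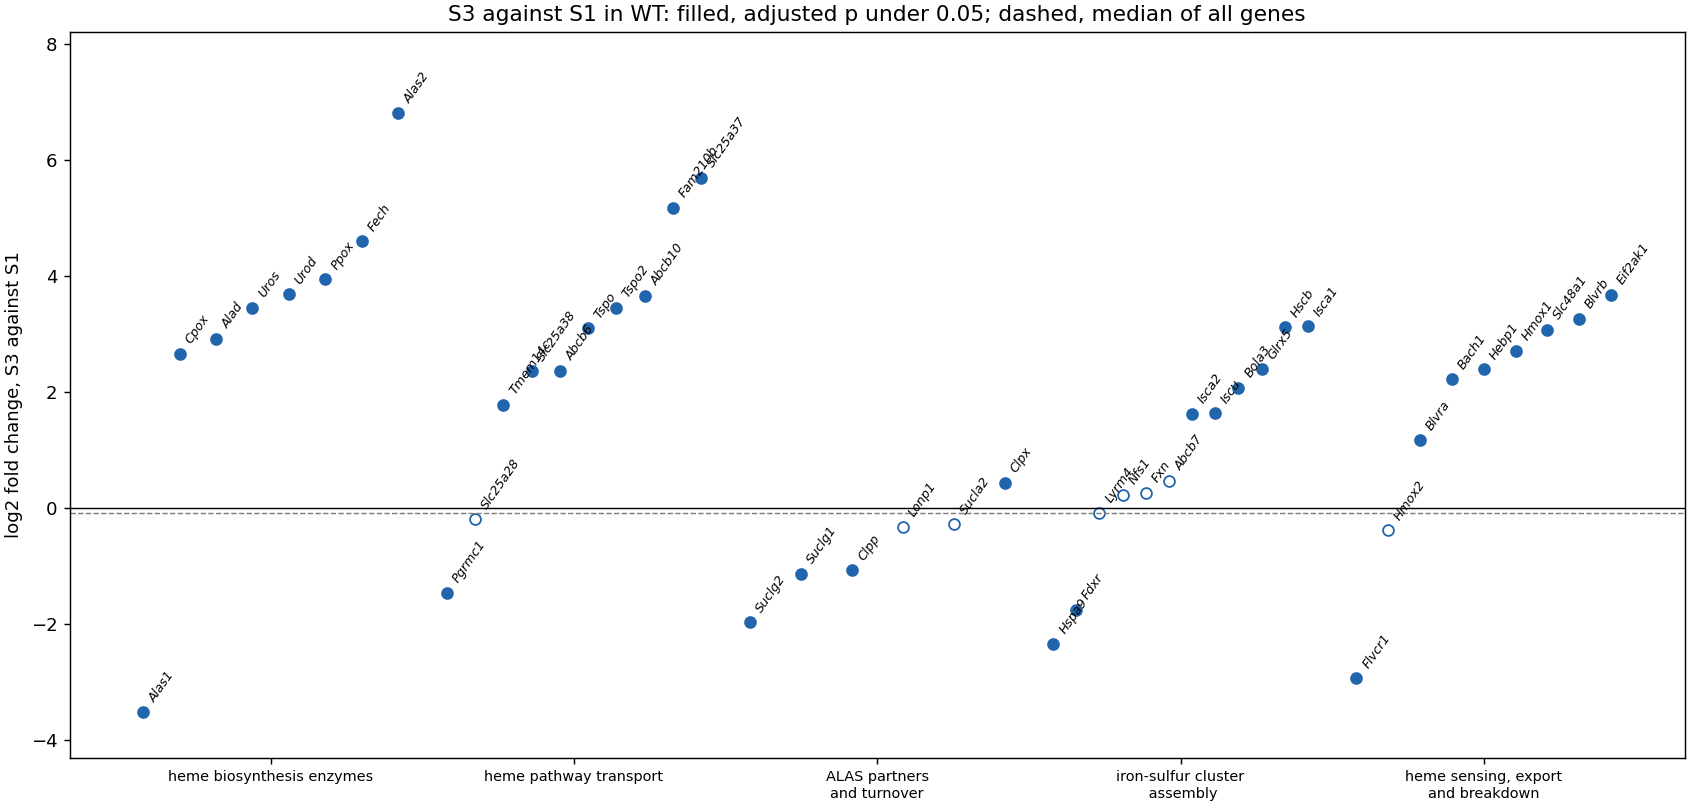
Log2 fold change from S1 to S3 in WT for the 8 heme biosynthesis genes and the 4 lists of other pathway genes; filled points passed the threshold and the dashed line is the median of all genes, −0.08. Medians are 3.57 for the members, 2.73 for transport, −0.70 for ALAS partners, 1.05 for iron-sulfur assembly and 2.39 for heme sensing, export and breakdown.

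In KO against WT at S3, the smallest p in any list was that of *Hmox1*, heme oxygenase 1, which breaks down heme. It stood at 27.4, 21.6, 34.6 and 19.2 CPM in WT embryos 0, 1, 5 and 8, at 21.8 and 16.7 CPM in Het, and at 9.18 and 10.0 CPM in KO. Both KO libraries were below all others, and 12.1% of all genes had both below all WT libraries. The log2 fold change of −1.36 (SE 0.25) just missed the threshold (adjusted p = 0.0678). *Hmox1* was called by DESeq2 (−1.37, adjusted p = 4.8e-05, 2.19% of all genes) and with sex as a covariate. It was also called without the filter on low counts, where 219 of 23389 genes were called higher and 137 lower. The adjusted p ran from 6.9e-08 to 0.520 over its alternatives. The summed level of 10 macrophage genes was 31.2 and 16.5 CPM in KO, 33.2 to 78.2 CPM in WT and 37.8 and 51.0 CPM in Het; its part in the difference was not tested. *Hspa9* had 0.58 (SE 0.18, adjusted p = 0.328), and the other genes named by the rule, *Tspo2*, *Slc25a28*, *Lonp1*, *Suclg2*, *Bola3* and *Slc48a1*, had log2 fold changes from −0.34 to 0.34. With sex in the fit, DESeq2 also called *Hspa9*, *Tspo2*, *Slc48a1* and *Slc25a37*, among 6.18% of all genes, and edgeR called *Hspa9*, among 4.63%.

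The genes most like the isozymes over the 16 libraries were sought among 13249 genes, by the root mean square difference of log2 (CPM + 0.1) after centring each gene. For *Alas2* they were *Slfn14* (0.21), *Fn3k* (0.23) and *Apol11b* (0.25). *Slfn14* went from 0.564 to 12.4 CPM at S1 to 347 to 714 CPM at S3. For *Alas1* they included *Mctp1* (0.40) and *Gml* (0.40), both of which were below 4 CPM in every S1 library and at 0 or at most 0.107 CPM at S3. *Gml* was at 0 in every S3 library, so that its values there on the log scale were set by the 0.1 added. Those of *Mctp1*, at 0 to 0.107 CPM in the S3 libraries, also depended on it.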

How the data were processed

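RNA-seq counts of S1 and S3 erythroblasts were analysed for 8 embryos. Per the labels and the study's methods, the authors amplified poly(A) RNA, mapped reads to mm39 with STAR 2.7.9 and deposited raw counts per gene made with featureCounts 1.6.4 on Ensembl 104. Read pairs were counted without strand, so overlapping genes are uncertain. Of 55416 genes, 54749 had a symbol in the GENCODE annotation (mouse release 39). The 4 library columns of no sample analysed here were not used. Groups, embryo numbers and sex came from the labels, and the authors had assigned sex from Y-chromosome reads.

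Genes with a mean above 10 normalized counts were tested with edgeR 4.0.16 (TMM, glmQLFit, glmQLFTest) in R 4.3.3, with Benjamini-Hochberg adjustment over all genes tested and a threshold of 0.05; DESeq2 1.42.0, which the study used, was an alternative. CPM are TMM-scaled over 16 libraries, and TPM use the exon length deposited by the authors. Called means past that threshold. The named genes were all members, the 2 genes of each list with the smallest p in WT between stages and in KO at S3, and the 3 genes nearest to each isozyme. A gene that the rule names is not reported here. Genes named beyond this rule were chosen after their values were seen. The members and lists were chosen with earlier results of these data known.

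Libraries with the same number at S1 and S3 were sorted from a single embryo. Their deviations from the group means correlated over 13402 genes at 0.03, 0.31, 0.43 and 0.45 in WT embryos 0, 1, 5 and 8, 0.59 in KO and 0.08 in Het. Scripts were tested on simulated counts.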

Additional observations from a re-analysis of the deposited data

How the results depend on the processing

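All 8 member calls between stages, in WT, KO and Het, kept their direction and their side of the threshold under every alternative run: DESeq2, RLE and upper-quartile scaling, globin genes left out of the scaling, no filter on low counts, all 16 libraries in 1 fit, the replicate block, and each embryo left out with both of its libraries. Contrasts within a stage cannot be blocked by embryo. With the replicate block (embryo as a term), 9410 genes were called in WT, 9151 in KO and 10038 in Het, against 8870, 7131 and 9936 without it; it gave −0.064 for *Uros* in the KO interaction, and changed no call of a member. Leaving out both WT embryos 0 and 8, and the canonical transcript for TPM, whole or by its counted bases, were chosen after seeing the data. The whole transcript put *Cpox* above *Alad* at S1 in 8 of 8 libraries, and at S3 *Cpox* and *Fech* above *Alad* and *Urod*, the reverse of the orders under the other lengths. It is longer than all exon bases counted for *Alad* (4411 against 1871), *Urod* (3811 against 2591) and *Uros* (3713 against 3576), since its annotation is later than that of the counts.

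Members called moved with sex as a covariate: to 1 in KO at S1 (DESeq2), to 3 (edgeR) and 4 (DESeq2) in Het at S1, and to 1 in Het at S3 (DESeq2), from 0 each. Calls over all genes in KO at S1 went from 1 to 45 with DESeq2, 7 without the filter, 2 with all 16 libraries, 21 with sex, 171 with DESeq2 and sex, and 2 without WT embryos 0 and 8. In KO at S3 they went from 66 to 259, 356, 114, 547 and 730 under the first 5 of these and to 43 with upper-quartile scaling. In Het at S1 they went from 0 to 30 with DESeq2, 397 with sex, 815 with DESeq2 and sex, and 5 without WT embryos 0 and 8, and in Het at S3 from 0 to 1 with DESeq2, 57 without the filter, 2124 with sex and 2148 with DESeq2 and sex. The KO interaction went from 1 to 12 with DESeq2, 3 without the filter and 2 with all 16 libraries, and the Het interaction from 0 to 6 without the filter. The cause was not tested.

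Values that changed sign were all of members not called. In KO at S1 *Uros* was 0.0175 with sex, 0.0104 with DESeq2 and sex, and *Cpox* −0.0007 with all 16 libraries. Without WT embryos 0 and 8, KO at S1 gave 0.52 for *Uros*, 0.0103 for *Urod*, 0.10 for *Ppox* and 0.15 for *Fech*, and Het at S1 gave 0.0795 for *Urod*, 0.0383 for *Cpox*, 0.13 for *Ppox* and 0.16 for *Fech*. The KO interaction without them was 0.061 for *Alas1*, −0.17 for *Alad*, −0.54 for *Uros*, −0.14 for *Ppox* and −0.29 for *Fech*, and the Het interaction −0.0853 for *Alad*, −0.0326 for *Urod*, −0.0431 for *Cpox*, −0.0766 for *Ppox* and −0.084 for *Fech*. Also in the KO interaction, *Alad* was −0.0099 with upper-quartile scaling and −0.0098 without the filter, and *Uros* −0.0173 with DESeq2 and with RLE scaling, −0.061 with upper-quartile scaling and −0.0518 without the filter.

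With each embryo left out in turn (both of its libraries between stages and in the interactions, its 1 library within a stage), calls over all genes ran from 5499 to 5826 between stages in Het, 0 to 2 in KO at S1, 11 to 42 in KO at S3 and 0 to 3 in Het at S3. The log2 fold change in KO at S1 ran from −0.35 to 0.19 for *Uros*, −0.16 to 0.002 for *Urod* and −0.0859 to 0.14 for *Cpox*, and in KO at S3 from −0.11 to 0.0225 for *Uros*. In Het it ran at S1 from −0.10 to 0.10 for *Urod*, and at S3 from −0.74 to 0.29 for *Alas1*, −0.0597 to 0.0142 for *Uros*, −0.0223 to 0.13 for *Urod*, −0.0663 to 0.0809 for *Cpox*, −0.14 to 0.0744 for *Ppox* and −0.18 to 0.083 for *Fech*. The KO interaction ran from −0.11 to 0.0935 for *Alad*, −0.21 to 0.18 for *Uros* and −0.0556 to 0.27 for *Fech*, and the Het interaction from −0.082 to 0.23 for *Alad* and −0.0811 to 0.16 for *Urod*. Between stages in KO and Het this left 1 library at each stage, tested in a fit of all other libraries of the series. Where 1 library of a group was left, it was assumed to vary like the others. Among the members *Alas2* had the largest SE in KO at S1, and its WT libraries spread most there; *Alas1* at S3 rested on 31 to 99 counts per library.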
